A study of Homo sapiens with 12 samples.

Results

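The RNA of 7 SOX transcription factors, SOX4, SOX12, SOX5, SOX6, SOX13, SOX9 and SOX15, was followed across 12 RNA-seq libraries of 2 established human breast cancer cell lines. The members are the rows of the deposited table of 32152 genes that carry these 7 names. All 7 passed the filter on low values and are among the 13737 protein-coding genes tested. SOX5, SOX6 and SOX15 passed the filter only through the libraries in which they were higher. MDA-MB-231 and Hs-578T are labelled triple negative breast cancer cells, which lack estrogen receptor, progesterone receptor and amplified HER2. The 6 groups hold 2 libraries each and are, in either line, parental controls, ERK5-ko and MEK5DD cells. For ERK5-ko, CRISPR/Cas9 was directed at MAPK7, which encodes the kinase ERK5, and the methods of the study describe the MDA-MB-231 line as grown from 1 clone. For Hs-578T the methods describe several clones, and which of them was sequenced is not given in the sources used here. MEK5DD is a mutant of the upstream kinase MEK5 that is active without a stimulus, and how it was brought into the cells is not given in the sources used here. The labels give passages 29 and 30 for MDA-MB-231 parental controls, 7 and 8 for ERK5-ko and 10 and 11 for MEK5DD, and passages 83 and 84, 8 and 9, and 8 and 9 for the same groups of Hs-578T, so that passage and engineered state cannot be told apart. Replicates of a group carry consecutive passage numbers, and nothing states that they were separate cultures, so p-values measure the spread between these libraries. Values are RPKM, reads scaled to the length of the gene model and the total of the library, and library totals lay between 20248162 and 27791195 reads.

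SOX proteins bind DNA through a high-mobility-group (HMG) box, which sits in the minor groove and bends the helix, and they are sorted into groups by the likeness of this box. SOX4 and SOX12 belong to the SOXC group, activators of embryonic and neural genes, and SOX4 is known in breast epithelium as a factor of the epithelial to mesenchymal transition. SOX5, SOX6 and SOX13 form the SOXD group, which lacks an activation domain of its own and pairs through a coiled coil. SOX9, of the SOXE group, works with SOX5 and SOX6 in cartilage and marks progenitor cells in several epithelia, mammary gland included, and SOX15 of the SOXG group is known from stem cells and muscle repair.

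The coding sequences below show the start of the HMG box in each member, because it is the feature that makes the 7 genes 1 family. They were read from GENCODE 29 transcripts, 5′ to 3′, as the longest run of codons that encodes the same residues in all 7, which is 10 codons or 30 bases, and capitals mark bases that differ from SOX4.
SOX4: aagcgacccatgaacgccttcatggtgtgg
SOX12: aagAgGccGatgaacgcAttcatggtgtgg
SOX5: aagcgTccAatgaaTgccttcatggtgtgg
SOX6: aagcgaccAatgaaTgcAttcatggtTtgg
SOX13: aagAgGcccatgaacgccttcatggtgtgg
SOX9: aagcgGcccatgaacgccttcatggtgtgg
SOX15: aagcgGccGatgaacgcGttcatggtgtgg
SOX9 differed from SOX4 at 1 of these bases, and SOX12 and SOX6 differed at 4. Over the 210 bases that start here, SOX4 and SOX12 shared 85.7% of their bases and SOX6 and SOX15 shared 55.2%, the highest and the lowest of the pairs. The 3 SOXD genes shared 80.0% to 84.3% with each other. The longest run of bases that any 2 members have in common, over all their coding transcripts, was 33 bases, between SOX4 and SOX12.

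In GRCh38, SOX4 (ENSG00000124766.5) lies on chromosome 6 from 21592769 to 21598619 and SOX12 (ENSG00000177732.7) on chromosome 20 from 325401 to 330224, each with 1 transcript of 1 exon in GENCODE 29. SOX5 (ENSG00000134532.15, chromosome 12, 23529500 to 23951032), SOX6 (ENSG00000110693.15, chromosome 11, 15966449 to 16739591) and SOX13 (ENSG00000143842.14, chromosome 1, 204073115 to 204127743) are long genes with 22, 17 and 10 annotated transcripts. SOX9 (ENSG00000125398.5) lies on chromosome 17 from 72121020 to 72126420 and SOX15 (ENSG00000129194.7) on the same chromosome from 7588178 to 7590170. The gene lengths behind the RPKM values were 5850 bases for SOX4, 4823 for SOX12, 1938 for SOX5, 2412 for SOX6, 1635 for SOX13, 3932 for SOX9 and 1178 for SOX15. The lengths used for SOX5, SOX6 and SOX13 are far below those of their longest transcripts (6975, 8865 and 3587 bases), and levels of different genes set side by side depend on them.

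The labels were checked on the engineered genes first. MAPK7 had an RPKM of 13.3 and 14.3 in MDA-MB-231 parental controls and 16.3 and 17.8 in libraries labelled ERK5-ko, and in Hs-578T 14 and 16.0 against 17.8 and 18.1. No library labelled ERK5-ko thus had less MAPK7 RNA than a parental library of its line, and these data show nothing of the protein. The study reports from Western blots that ERK5 protein was knocked out in both lines. MAP2K5, the gene of MEK5, rose in libraries labelled MEK5DD of both lines, 14.1-fold in mean RPKM in MDA-MB-231 and 1.43-fold in Hs-578T. The means reached were 186 and 22.5 RPKM, so that the MEK5DD label stood for unlike MAP2K5 RNA levels in the 2 lines. The labelled cell type was checked on its markers. ESR1 and PGR, the receptor genes, reached no more than 0.120 and 0.348 RPKM in any library, while ERBB2, the gene of HER2, lay between 27.8 and 56.8 and was not absent. Vimentin (VIM) lay between 1598 and 4067 RPKM and CD44 between 819 and 1695, and the leukocyte gene PTPRC and the basal keratin KRT5 reached at most 13 and 5 reads. The endothelial gene PECAM1 was not absent and reached 6.48 RPKM and 218 reads in Hs-578T. The epithelial gene EPCAM reached 25.7 RPKM in MDA-MB-231.

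The parental lines held different SOX RNA. In MDA-MB-231 parental controls SOX9 made up 48.9% ± 0.830 (SD, n = 2) of the RPKM summed over the 7 genes, SOX13 37.6% ± 1.13 and SOX12 11.2% ± 0.497. In Hs-578T parental controls SOX4 made up 47.1% ± 0.418 (SD, n = 2), SOX12 31.2% ± 0.453, SOX13 11.5% ± 0.769 and SOX9 8.79% ± 0.128. SOX5, SOX6 and SOX15 together were a small part in each. The summed RPKM was 80.9 ± 1.06 for MDA-MB-231 and 61.2 ± 6.71 for Hs-578T. In bulk RNA, fewer cells that express a gene and less RNA per cell cannot be told apart.

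**Figure D1:**
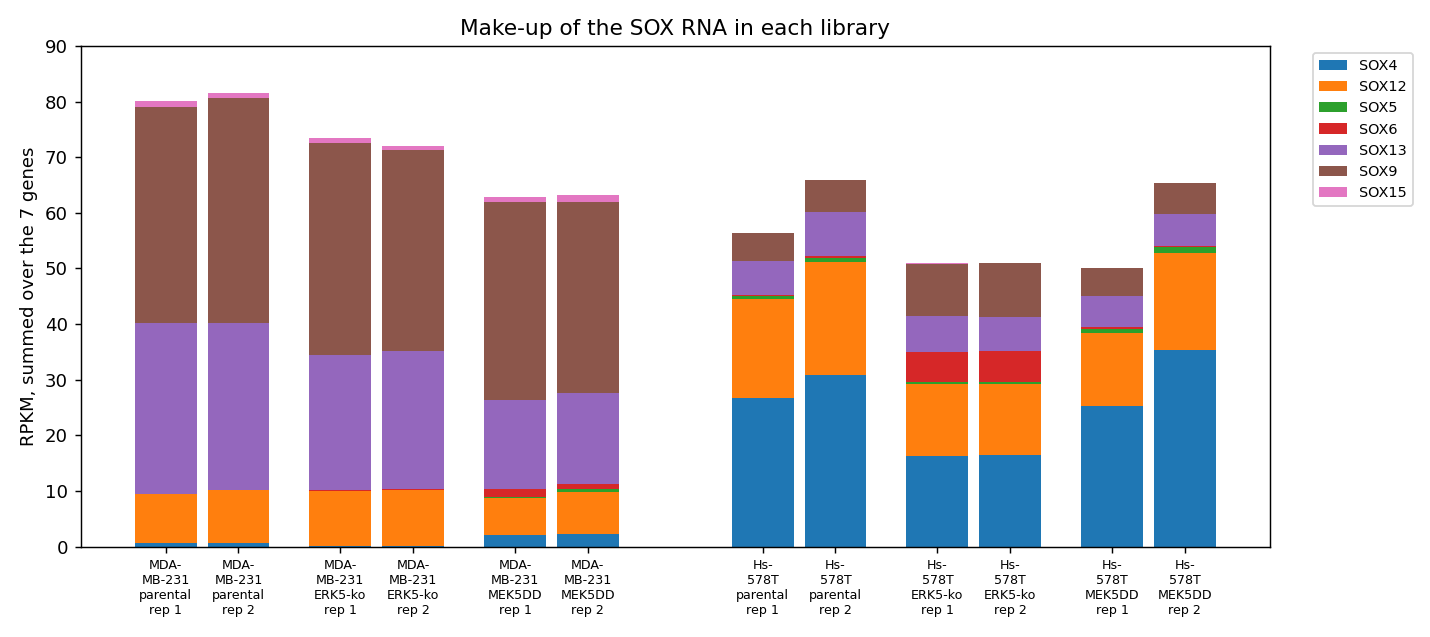
RPKM of the 7 SOX genes stacked for each of the 12 libraries, with the summed RPKM on a linear axis that starts at 0. SOX9 and SOX13 fill most of every MDA-MB-231 bar, SOX4 and SOX12 most of every Hs-578T bar, and the red SOX6 segment is visible in the libraries labelled ERK5-ko of Hs-578T and MEK5DD of MDA-MB-231.

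Of the 7 members, 3 were higher and 3 lower in parental MDA-MB-231 than in parental Hs-578T at an adjusted p under 0.05, where 77.4% of all tested genes passed, 46.0% higher and 31.3% lower. All 6 were also past the study's fold thresholds, a fold above 1.5 or below 0.5, as were 49.5% of all tested genes. All 7 had parental libraries that did not overlap between the lines, as did 88.9% of all tested genes. Log2 fold changes here and below are those of RPKM + 0.5, fitted across all tested genes with limma and adjusted by the Benjamini-Hochberg method, and they understate the change of genes near 0. SOX9 was higher by 2.77 (standard error 0.0971, adjusted p = 1.69e-10) and SOX13 by 2.04 (standard error 0.112, adjusted p = 1.03e-08). SOX4 fell by 4.64 relative to Hs-578T (standard error 0.145, adjusted p = 6.57e-11), a mean RPKM of 0.671 ± 0.0188 against 28.8 ± 2.91 (SD, n = 2), and SOX12 fell by 1.02 (adjusted p = 2.84e-05). SOX15 was nearly absent from Hs-578T, where the parental libraries held 0 and 1 reads against 33 and 33 in MDA-MB-231. The ratio of SOX15 reads scaled to the library totals was 54.8 (exact 95% interval 9.49 to 2196, counting error only, log2 fold change 1.59, adjusted p = 3.90e-07). SOX5 had the opposite pattern, 26 and 30 reads in Hs-578T against 0 and 2 in MDA-MB-231, a ratio of 33.7 (8.91 to 285) and a log2 fold change of -1.17 (adjusted p = 1.02e-05). For SOX6 the parental difference was -0.29 (95% interval -0.60 to 0.01, adjusted p = 0.0744), and it passed with a pseudocount of 0.1 (-0.82, adjusted p = 0.0195), with voom on the recovered reads (-1.60, adjusted p = 0.0237) and without Hs-578T parental replicate 1 (-0.43, adjusted p = 0.0303). The median over all tested genes was 0.19 in this comparison and -0.02 after median-ratio scaling. Each of the 6 differences that passed exceeded this shift.

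**Figure D2:**
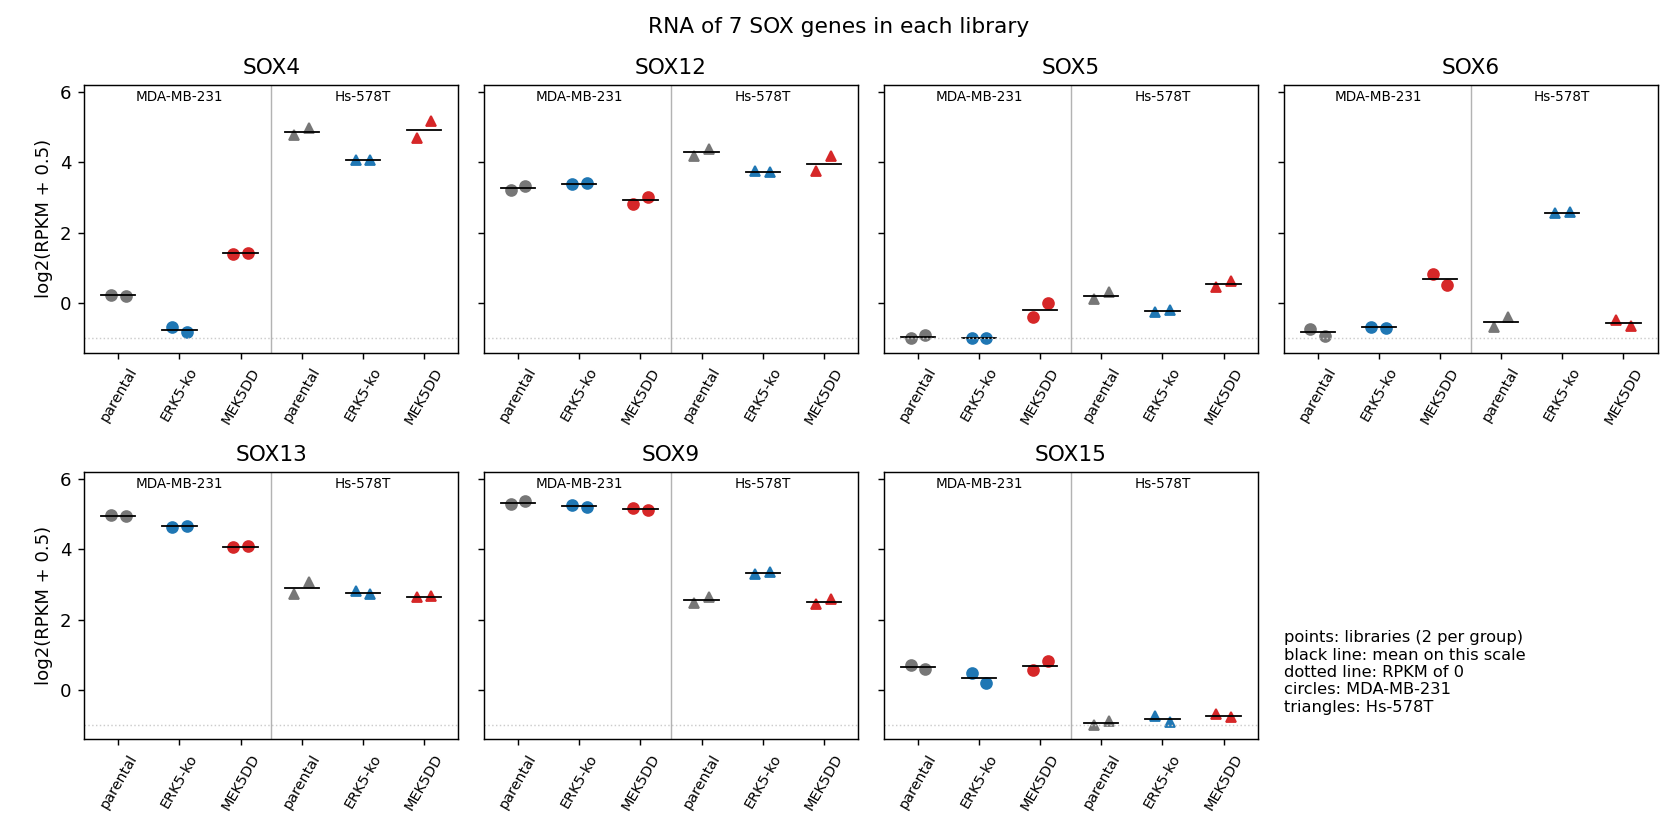
log2(RPKM + 0.5) of each SOX gene in the 12 libraries, with 2 points per group, circles for MDA-MB-231, triangles for Hs-578T and a black line at the group mean on this scale. SOX4 takes a different level in each MDA-MB-231 group, and SOX6 stands high in the Hs-578T libraries labelled ERK5-ko and lies near 0 RPKM in the other Hs-578T libraries.

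SOX4 was the member that fell with the ERK5-ko label in both lines. In MDA-MB-231 its RPKM was 0.685 and 0.658 in parental controls (99 and 107 reads), 0.121 and 0.0685 in the libraries labelled ERK5-ko (16 and 10 reads) and 2.16 and 2.18 in those labelled MEK5DD (304 and 354 reads). In Hs-578T it was 26.8 and 30.9 in parental controls, 16.4 and 16.4 in the libraries labelled ERK5-ko and 25.3 and 35.3 in those labelled MEK5DD. The 3 groups of MDA-MB-231 did not overlap, with ERK5-ko lowest and MEK5DD highest. In Hs-578T the libraries labelled ERK5-ko lay below all others, and the parental libraries lay between those labelled MEK5DD. The mean of the lowest Hs-578T group, 16.4 RPKM, was still above that of the highest MDA-MB-231 group, 2.17 RPKM.

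With the ERK5-ko label in MDA-MB-231, SOX4 fell by 0.98 (standard error 0.145, adjusted p = 0.00102), a parental mean RPKM 7.08 times that of ERK5-ko. It was the only member that passed (1 of 7), where 17.3% of all tested genes passed, 6.91% higher and 10.4% lower. The fitted change was -2.84 with voom on the recovered reads and -2.00 with a pseudocount of 0.1. In Hs-578T it fell by 0.79 (standard error 0.145, adjusted p = 0.00137), a parental mean 1.76 times that of ERK5-ko. Neither fitted value was past the study's threshold of a fold below 0.5, which for MDA-MB-231 rests on the 0.5 RPKM added to each value. Without it the mean RPKM with ERK5-ko was 0.141 times the parental mean there, and both alternative fits just given were past the threshold. With MEK5DD, SOX4 rose by 1.19 in MDA-MB-231 (standard error 0.145, adjusted p = 5.44e-05), 3.23-fold in mean RPKM, and the difference in Hs-578T was 0.05 (95% interval -0.26 to 0.37, adjusted p = 0.832). The MEK5DD effect on SOX4 differed between the lines by 1.13 (standard error 0.206, adjusted p = 0.00123), a test that 39.6% of all tested genes passed. The ERK5-ko effect differed by -0.19 (95% interval -0.64 to 0.26, adjusted p = 0.490), but this test turned on the scale, with -1.19 (adjusted p = 0.00370) at a pseudocount of 0.1, -2.03 (adjusted p = 0.00375) with voom and 0.16 (adjusted p = 0.521) at a pseudocount of 1.

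SOX12, the other SOXC gene, was more even. Its RPKM in MDA-MB-231 was 8.72 and 9.46 in parental controls, 9.88 and 10.1 with ERK5-ko and 6.57 and 7.67 with MEK5DD. In Hs-578T the values were 17.8 and 20.3, 13.0 and 12.8, and 13.1 and 17.5. In Hs-578T the libraries of both engineered groups lay below the parental libraries, and in MDA-MB-231 only those labelled MEK5DD did. SOX12 in Hs-578T libraries labelled ERK5-ko fell by 0.54 (standard error 0.137, adjusted p = 0.00859), which no longer passed when only this line was fitted (adjusted p = 0.0665), without parental replicate 2 (-0.45, adjusted p = 0.0504) or without ERK5-ko replicate 2 (-0.54, adjusted p = 0.0578). In MDA-MB-231 the ERK5-ko difference was 0.13 (95% interval -0.17 to 0.43), and the ERK5-ko effects of the lines differed by 0.68 (adjusted p = 0.0169), a test that 39.8% of all tested genes passed. This difference missed the threshold without MDA-MB-231 parental replicate 1 (adjusted p = 0.0663), without MDA-MB-231 ERK5-ko replicate 2 (0.0545) and without Hs-578T ERK5-ko replicate 2 (0.0570). The MEK5DD difference of SOX12 was -0.33 in MDA-MB-231 (adjusted p = 0.0711) and -0.32 in Hs-578T (adjusted p = 0.120). The former passed with the replicate number as a block (adjusted p = 0.0280) and when only MDA-MB-231 was fitted (adjusted p = 0.0379). It stayed at -0.33 without either Hs-578T MEK5DD library. The Hs-578T difference was -0.52 without Hs-578T MEK5DD replicate 2.

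SOX6 had the largest change of any member against parental controls, and its high groups were not the same in the 2 lines. In Hs-578T it had 7 and 13 reads in parental controls (0.127 and 0.260 RPKM), 341 and 321 in the libraries labelled ERK5-ko (5.39 and 5.49 RPKM) and 11 and 7 in those labelled MEK5DD (0.225 and 0.141 RPKM). In MDA-MB-231 it had 6 and 2 reads in parental controls, 7 and 7 with ERK5-ko and 75 and 62 with MEK5DD (1.29 and 0.927 RPKM). The high libraries thus carried ERK5-ko in Hs-578T and MEK5DD in MDA-MB-231, and the libraries of the other 4 groups held 2 to 13 reads. Only the high libraries reached the 0.5 RPKM of the filter, so SOX6 was among the tested genes because of the groups found high. SOX6 rose by 3.11 in Hs-578T libraries labelled ERK5-ko (standard error 0.139, adjusted p = 4.78e-08), 28.1-fold in mean RPKM, the 15th highest change of the 13737 tested genes. In MDA-MB-231 libraries labelled MEK5DD it rose by 1.5 (standard error 0.139, adjusted p = 5.86e-06), 17.0-fold in mean RPKM. These folds rest on few parental reads. As ratios of scaled reads they were 28.6 (exact 95% interval 18.4 to 47.1) in Hs-578T and 17.4 (8.57 to 41.03) in MDA-MB-231, counting error only. The fold in mean RPKM was 20.9 without Hs-578T parental replicate 1 and 42.8 without replicate 2, and for MDA-MB-231 it was 37.2 without parental replicate 1 and 11.03 without replicate 2. With voom on the recovered reads these changes were 4.84 and 4.12. The MDA-MB-231 ERK5-ko difference was 0.14 (95% interval -0.16 to 0.45) and the Hs-578T MEK5DD difference -0.02 (-0.32 to 0.29). The lines differed in both effects, by -2.96 for ERK5-ko (adjusted p = 1.86e-06) and by 1.52 for MEK5DD (adjusted p = 0.000121).

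The locus of SOX6 overlaps C11orf58 on the opposite strand over 126460 bases. C11orf58 lay between 94.8 and 149 RPKM and rose by 0.48 in Hs-578T libraries labelled ERK5-ko (adjusted p = 0.00229), while its difference in MDA-MB-231 with MEK5DD was -0.01 (adjusted p = 0.973). The library kit keeps the strand, but whether the counting used it is not given in the sources used here, and a part of C11orf58 reads in the SOX6 counts was not tested. SOX12 lies within NRSN2-AS1 (0.548 to 4.10 RPKM), SOX9 within SOX9-AS1 (at most 21 reads) and SOX15 within MPDU1 (56.4 to 83.6 RPKM), each on the opposite strand.

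SOX5 passed in the same direction as SOX4 in 2 of the 4 comparisons, at a far lower level. Its reads in MDA-MB-231 were 0 and 2 in parental controls, 0 and 0 with ERK5-ko and 12 and 27 with MEK5DD. In Hs-578T they were 26 and 30 in parental controls (0.587 and 0.747 RPKM), 17 and 18 with ERK5-ko (0.334 and 0.383 RPKM) and 34 and 42 with MEK5DD (0.866 and 1.06 RPKM). In MDA-MB-231 only libraries labelled MEK5DD held more than 3 reads, and in Hs-578T the 3 groups did not overlap, with ERK5-ko lowest. SOX5 rose by 0.75 in MDA-MB-231 with MEK5DD (standard error 0.138, adjusted p = 0.00109), a ratio of scaled reads of 19.8 (exact 95% interval 5.12 to 169). In Hs-578T libraries labelled ERK5-ko it fell by 0.44 (adjusted p = 0.0261), which did not pass with voom (-0.87, adjusted p = 0.0884) or without Hs-578T parental replicate 2 (-0.34, adjusted p = 0.129), ERK5-ko replicate 1 (-0.40, adjusted p = 0.114) or ERK5-ko replicate 2 (-0.48, adjusted p = 0.0774). With MEK5DD in Hs-578T the difference was 0.32 (95% interval 0.02 to 0.63, adjusted p = 0.116), and it passed after quantile normalization (0.47, adjusted p = 0.0296). No fold is given for ERK5-ko in MDA-MB-231, where 0 reads in 2 libraries allow up to 3 each and parental controls held no more. The MEK5DD effect on SOX5 differed between the lines by 0.42 (95% interval -0.0049 to 0.85, adjusted p = 0.108), and this passed with a pseudocount of 0.1 (1.52, adjusted p = 0.00866), with voom (3.54, adjusted p = 0.00302) and without MDA-MB-231 MEK5DD replicate 1 (0.63, adjusted p = 0.0258).

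SOX13, the third SOXD gene, was lowest with MEK5DD in MDA-MB-231. Its RPKM there was 30.7 and 29.997 in parental controls, 24.4 and 24.8 with ERK5-ko and 16.1 and 16.4 with MEK5DD, 3 groups without overlap. In Hs-578T the values were 6.18 and 7.94, 6.48 and 6.11, and 5.68 and 5.84, and the ERK5-ko libraries overlapped the parental controls. SOX13 with MEK5DD in MDA-MB-231 fell by 0.88 (standard error 0.112, adjusted p = 7.25e-05), a parental mean 1.87 times that of MEK5DD. The difference in Hs-578T was -0.26 (95% interval -0.51 to -0.02, adjusted p = 0.115), which passed without Hs-578T parental replicate 1 (-0.43, adjusted p = 0.0201), and the effects of MEK5DD differed between the lines by -0.62 (adjusted p = 0.00930). With ERK5-ko in MDA-MB-231 the difference was -0.30 (95% interval -0.54 to -0.05, adjusted p = 0.0909). It passed when only this line was fitted (adjusted p = 0.00981) or without Hs-578T parental replicate 1 or 2 (0.0361 and 0.0365), with the difference still at -0.30. In Hs-578T the ERK5-ko difference was -0.14 (adjusted p = 0.329), and without parental replicate 1 it was -0.31 (adjusted p = 0.0488).

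SOX9 was the most abundant member in every MDA-MB-231 library and was higher with ERK5-ko in Hs-578T. Its RPKM in Hs-578T was 5.01 and 5.73 in parental controls, 9.34 and 9.77 with ERK5-ko and 4.91 and 5.44 with MEK5DD. In MDA-MB-231 it was 38.8 and 40.4, 38 and 36.2, and 35.5 and 34.3. The libraries labelled ERK5-ko stood above all others of Hs-578T, and in MDA-MB-231 the 3 groups followed each other closely, with parental controls highest. SOX9 rose by 0.78 in Hs-578T libraries labelled ERK5-ko (standard error 0.0971, adjusted p = 0.0001), 1.78-fold in mean RPKM. In MDA-MB-231 the ERK5-ko difference was -0.09 (95% interval -0.31 to 0.12, adjusted p = 0.582), and the lines differed by -0.87 (adjusted p = 0.000522). The MEK5DD differences were -0.18 in MDA-MB-231 (95% interval -0.39 to 0.03, adjusted p = 0.166, and 0.0290 when only this line was fitted) and -0.05 in Hs-578T (95% interval -0.26 to 0.17). SOX9-AS1, the antisense RNA, had 0.0912 and 0.296 RPKM in the Hs-578T libraries labelled ERK5-ko, below the 0.523 and 0.462 of the parental controls, at no more than 21 reads in any library.

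SOX15 was read in MDA-MB-231 at 1.13 and 1.01 RPKM in parental controls (33 and 33 reads), 0.903 and 0.646 with ERK5-ko (24 and 19 reads) and 0.988 and 1.25 with MEK5DD (28 and 41 reads). Every Hs-578T library held 3 reads or fewer. The ERK5-ko libraries of MDA-MB-231 lay below the parental controls and the MEK5DD libraries lay on either side of them. The differences were -0.31 (95% interval -0.59 to -0.02, adjusted p = 0.134) with ERK5-ko and 0.04 (95% interval -0.24 to 0.33, adjusted p = 0.841) with MEK5DD. No fold is given within Hs-578T, where all groups were at the floor of 3 reads a library.

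**Figure D3:**
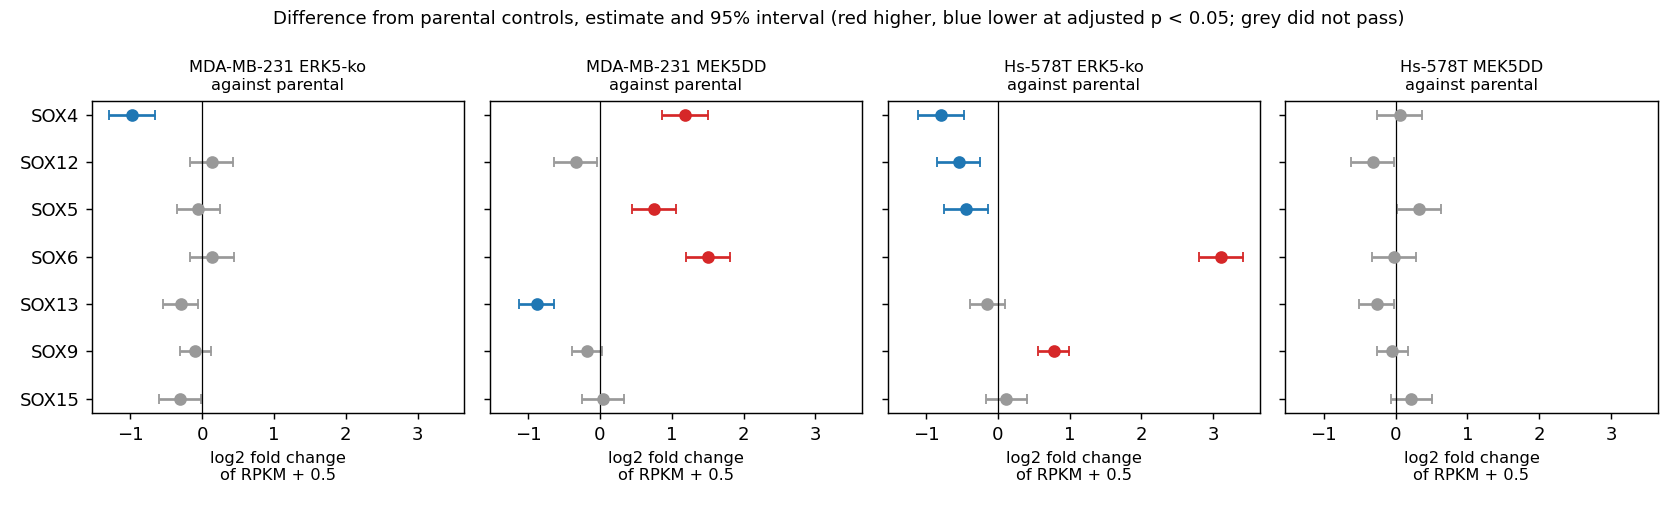
Log2 fold change of RPKM + 0.5 against the parental controls of the same line for the 7 SOX genes, with points for the limma estimate and bars for its 95% interval. Red marks a gene higher and blue a gene lower at an adjusted p under 0.05. SOX4 is blue in both ERK5-ko panels, SOX6 at 3.11 in Hs-578T is the farthest from 0, and no gene passed in the Hs-578T MEK5DD panel.

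Counted over the members, 4 of 7 passed with MEK5DD in MDA-MB-231, 3 higher and 1 lower, where 41.3% of all tested genes passed, 17.5% higher and 23.8% lower. In Hs-578T libraries labelled ERK5-ko, 5 of 7 passed, SOX6 and SOX9 higher and SOX4, SOX12 and SOX5 lower, where 39.4% of all tested genes passed, 19.7% in each direction. With MEK5DD in Hs-578T, 0 of 7 passed in limma, where 23.4% of all tested genes did, 6.44% higher and 17.0% lower, although SOX5, SOX12 and SOX13 had unadjusted p-values of 0.0383, 0.0402 and 0.0381, and 0 passed with voom. Without parental replicate 1 or MEK5DD replicate 2 of Hs-578T 1 passed. Groups did not overlap for 6, 6, 5 and 4 of the 7 members in MDA-MB-231 ERK5-ko, MDA-MB-231 MEK5DD, Hs-578T ERK5-ko and Hs-578T MEK5DD, against 65.6%, 80.1%, 69.8% and 49.9% of all tested genes. With the study's fold thresholds as well, 3 members were left with MEK5DD in MDA-MB-231 (SOX4, SOX5 and SOX6, where 13.9% of all tested genes passed) and 2 with ERK5-ko in Hs-578T (SOX6 and SOX9, where 12.6% passed). With ERK5-ko in MDA-MB-231 and MEK5DD in Hs-578T 0 were left, where 3.87% and 4.38% passed, and in the former SOX4 missed the fold at this pseudocount and was past it at 0.1. Comparisons within a line share their parental libraries.

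The make-up of the SOX RNA followed these changes. In Hs-578T libraries labelled ERK5-ko, SOX4 made up 32.1% ± 0.0730 (SD, n = 2) of the summed RPKM, SOX9 18.8% ± 0.584 and SOX6 10.7% ± 0.139, the last from 0.310% ± 0.120 in parental controls. In MDA-MB-231 libraries labelled MEK5DD, SOX13 made up 25.8% ± 0.245, SOX9 55.4% ± 1.59, SOX4 3.44% ± 0.0101 and SOX6 1.76% ± 0.417. The summed RPKM was 63.1 ± 0.254 in the latter and 51.0 ± 0.0350 in the former.

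Other SOX genes had few reads. Of 12 others listed, 8 are in the table and 0 passed the filter, and the highest was SOX18, a gene of vessel development, at 0.674 RPKM and 26 reads in a parental Hs-578T library. SOX7, its relative, reached 17 reads and SOX30 reached 9, and SOX1, SOX2, SOX10, SOX11 and SOX21 reached no more than 5. SOX11, the third SOXC gene, had at most 4 reads. SOX3, SOX8, SOX14 and SOX17 have no values under these names, so they could not be analysed.

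Genes reported in the literature as SOX4 targets were set beside SOX4, as a list of 13, all of which were tested. With ERK5-ko in MDA-MB-231, where SOX4 was lower, 3 of 13 fell and 0 rose, where 10.4% of all tested genes fell and 6.91% rose, and the list median was -0.14 beside -0.04 over all tested genes. The tenascin gene TNC, a matrix protein, fell by 0.72 (adjusted p = 0.00824), EZH2, a histone methyltransferase, by 0.71 (adjusted p = 0.00117) and TUBB3, a neuronal tubulin, by 0.44 (adjusted p = 0.0293). With MEK5DD in MDA-MB-231, where SOX4 was higher, 6 of 13 rose and 0 fell, where 17.5% of all tested genes rose and 23.8% fell, and the median was 0.37 beside -0.01. TNC went from 18.3 and 20.6 RPKM to 105 and 105 (log2 fold change 2.41, adjusted p = 2.91e-07), CEMIP2, a hyaluronidase listed under its older symbol TMEM2, from 12.5 and 11.1 to 32.5 and 32.5 (1.43, adjusted p = 9.92e-05), and TUBB3 from 15.1 and 15.4 to 28.7 and 31.6 (0.96, adjusted p = 7.92e-05). These libraries did not overlap their parental controls.

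In Hs-578T the list did not move one way with SOX4. With ERK5-ko, 3 of 13 rose and 2 fell, where 19.7% of all tested genes passed in each direction, and the median was 0.19 beside 0.01. TNC rose by 1.52 (adjusted p = 2.35e-05), from 2.30 and 3.56 RPKM to 9.51 and 8.84, while TUBB3 fell by 0.99 (adjusted p = 9.87e-05). With MEK5DD, 4 of 13 rose and 2 fell, where 6.44% of all tested genes rose and 17.0% fell, and the median was -0.04 beside -0.08. TNC rose there by 1.79 (adjusted p = 2.22e-05) beside a SOX4 difference of 0.05. EDN1 also rose, by 0.92 (adjusted p = 0.0115), and EZH2 fell by 0.58 (adjusted p = 0.00302). TNC was thus lower in 1 and higher in 3 of the 4 comparisons, and TUBB3 passed in all 4, lower in 3.

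**Figure D4:**
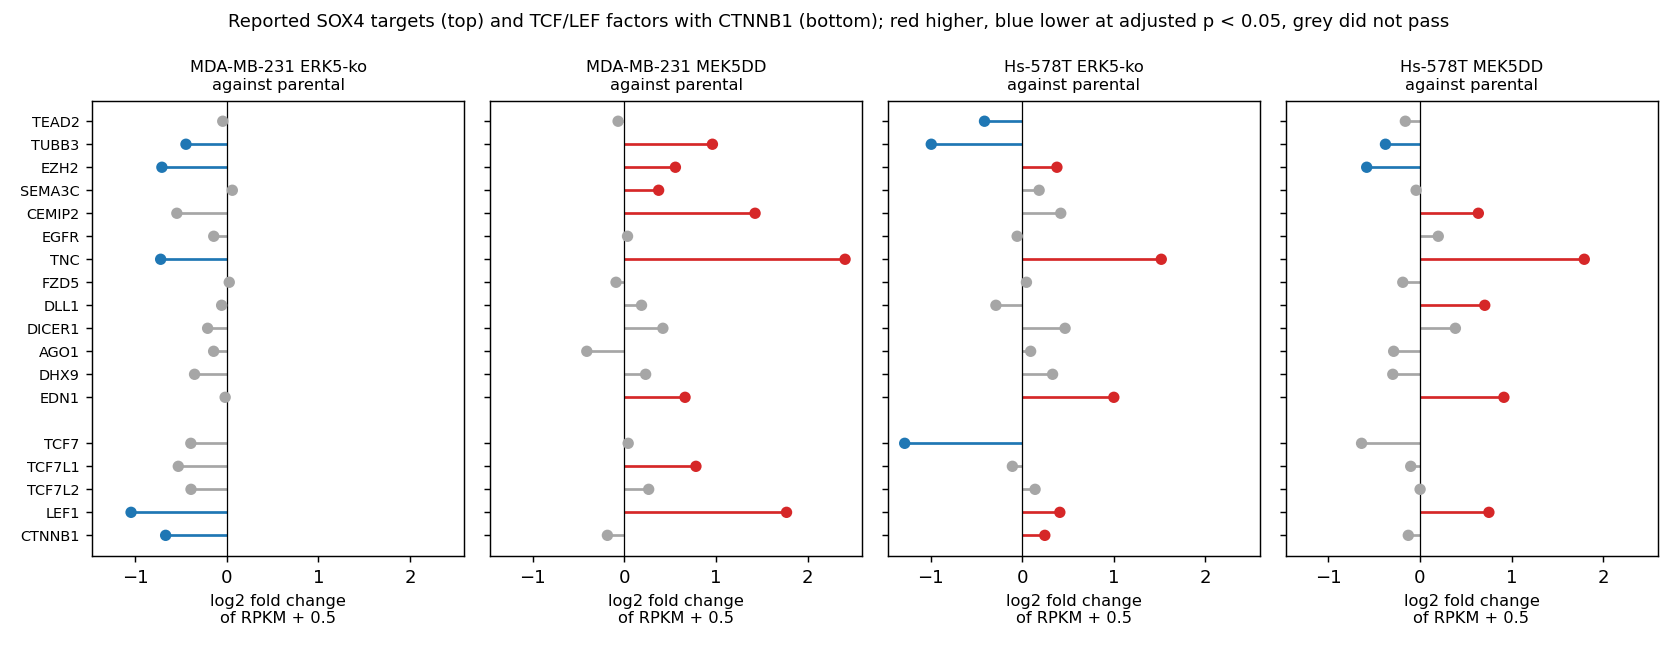
Log2 fold change of RPKM + 0.5 against parental controls for 13 reported SOX4 targets in the upper block and 4 TCF/LEF genes and CTNNB1 in the lower block, 1 panel per comparison. Red marks a gene higher and blue a gene lower at an adjusted p under 0.05, and grey a gene that did not pass. All passing genes are blue with ERK5-ko and red with MEK5DD in MDA-MB-231, and both colours appear in the Hs-578T ERK5-ko panel.

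The 4 TCF/LEF factors, which also bind DNA by an HMG box, and their partner beta-catenin (CTNNB1), which has none, were set beside the SOX genes as a list of 5, all of which were tested. LEF1 had 3.67 and 3.78 RPKM in MDA-MB-231 parental controls, 1.54 and 1.56 with ERK5-ko and 14 and 13.8 with MEK5DD, in the same order as SOX4. LEF1 fell by 1.04 with ERK5-ko (adjusted p = 0.000613) and rose by 1.77 with MEK5DD (adjusted p = 2.02e-06). In Hs-578T it rose with ERK5-ko (0.41, adjusted p = 0.0400) and with MEK5DD (0.75, adjusted p = 0.00357), and TCF7 fell by 1.28 with ERK5-ko (adjusted p = 0.000895). CTNNB1 fell by 0.67 with ERK5-ko in MDA-MB-231 (adjusted p = 0.000486) and rose by 0.25 with it in Hs-578T (adjusted p = 0.0436). Over the list, 2 of 5 fell and 0 rose with ERK5-ko in MDA-MB-231 (LEF1 and CTNNB1), where 10.4% of all tested genes fell and 6.91% rose. With MEK5DD there, 2 of 5 rose and 0 fell (LEF1 and TCF7L1), where 17.5% rose and 23.8% fell. Hs-578T had 2 that rose (LEF1 and CTNNB1) and 1 that fell with ERK5-ko, where 19.7% passed in each direction. With MEK5DD in Hs-578T 1 rose and 0 fell, where 6.44% rose and 17.0% fell. The list medians were -0.53, 0.27, 0.14 and -0.10 in this order, beside -0.04, -0.01, 0.01 and -0.08 over all tested genes.

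Cartilage matrix genes, the classic targets of SOX9 with SOX5 and SOX6, were mostly too low to test. Of 13 listed, 11 are in the table and 3 were tested (COL9A2, MATN3 and MIA). COL2A1, ACAN and COMP, the genes of type II collagen, aggrecan and a matrix glycoprotein of cartilage, reached at most 1, 6 and 1 reads in any library, and HAPLN1 and MATN1 reached 6 each. COL9A3, COL11A1 and COL11A2 reached 21, 26 and 32 reads. COL11A2, too low to test, had 0.308 and 0.2499 RPKM in the Hs-578T libraries labelled ERK5-ko and 0.155 and 0.146 in the parental controls. SOX6 and SOX9 were higher in these ERK5-ko libraries than in the parental controls. In MDA-MB-231, where SOX9 was more abundant, COL11A2 lay between 0.0559 and 0.153 RPKM. COL9A2 went the opposite way to COL11A2 in the Hs-578T libraries labelled ERK5-ko, from 1.35 and 1.67 RPKM to 0.893 and 1.32 (-0.34, adjusted p = 0.110). MATN3 differed there by 0.15 (adjusted p = 0.377) and MIA by 0.19 (adjusted p = 0.511). With ERK5-ko in Hs-578T, 0 of the 3 tested genes passed in limma, where 39.4% of all tested genes passed. With MEK5DD in Hs-578T only MATN3 passed, where 23.4% did, and it rose by 0.45 (adjusted p = 0.0214). In MDA-MB-231, COL9A2 rose by 0.57 with ERK5-ko (adjusted p = 0.0280), MIA fell by 0.996 with ERK5-ko (adjusted p = 0.00913) and rose by 0.94 with MEK5DD (adjusted p = 0.00464), and MATN3 fell by 0.69 with MEK5DD (adjusted p = 0.000862).

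Epithelial and mesenchymal markers moved with some of the same groups. KRT18, a simple epithelial keratin, rose with ERK5-ko by 0.88 in MDA-MB-231 (adjusted p = 0.00375) and by 1.71 in Hs-578T (adjusted p = 1.49e-05). EPCAM, a surface protein of epithelia, rose by 0.39 with ERK5-ko in MDA-MB-231 (adjusted p = 0.0265) and fell by 1.30 with MEK5DD (adjusted p = 2.24e-06). VIM, a mesenchymal intermediate filament, went from 1610 and 1751 RPKM in MDA-MB-231 parental controls to 3418 and 3492 with MEK5DD (log2 fold change 1.04, adjusted p = 4.01e-05), the libraries in which SOX4, SOX5 and SOX6 were higher and SOX13 was lower. Other marker values did not follow this pattern. With ERK5-ko the VIM difference was -0.05 for either line (adjusted p = 0.829 for MDA-MB-231, 0.775 for Hs-578T). The KRT18 difference with MEK5DD was -0.17 for MDA-MB-231 (adjusted p = 0.441) and 9.66e-05 for Hs-578T, and neither passed. CD44 rose by 0.70 with ERK5-ko in Hs-578T (adjusted p = 0.000275) and by 0.56 with MEK5DD in MDA-MB-231 (adjusted p = 0.00092). The part of these markers in the SOX differences was not tested. Of the 11 cell markers 7 were tested. In MDA-MB-231, 2 rose and 1 fell with ERK5-ko, where 6.91% of all tested genes rose and 10.4% fell. With MEK5DD there, 2 rose and 3 fell, where 17.5% rose and 23.8% fell. In Hs-578T, 2 rose and 0 fell with ERK5-ko, where 19.7% passed in each direction. With MEK5DD there, 0 rose and 2 fell, where 6.44% rose and 17.0% fell.

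The genes with the profile most like that of SOX4 were sought among 12422 tested genes with a mean of at least 1 RPKM, by Pearson's correlation of log2(RPKM + 0.5) over the 12 libraries. They were FAM212B, RCN3 and EFNB1, an ephrin ligand. As the libraries fall into 2 lines, the correlation is given within each, over 6 libraries that share a line and their parental controls, as a description. It was 0.981 for MDA-MB-231 and 0.970 for Hs-578T for FAM212B, 0.998 and 0.726 for RCN3 and 0.984 and 0.878 for EFNB1. FAM212B went from a mean of 1.27 RPKM in MDA-MB-231 parental controls to 0.787 with ERK5-ko and 2.73 with MEK5DD, and from 19.02 to 12.4 with ERK5-ko in Hs-578T. For SOX9 the genes were ZBTB44, PPAT and UGT8, with correlations of 0.990, 0.984 and 0.980 within Hs-578T and of 0.863, 0.285 and 0.648 within MDA-MB-231, where SOX9 varied little. ZBTB44 had means of 4.86, 9.16 and 4.56 RPKM in the parental, ERK5-ko and MEK5DD libraries of Hs-578T.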

How the data were processed

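Total RNA of cells at 70% confluence was made into libraries with a stranded mRNA kit. The authors deposited RPKM values of 32152 genes in 12 libraries, each gene's reads scaled to the length of its gene model and the library total. The submitters' processing notes name bcl2fastq, Trimmomatic 0.32, TopHat2 2.1.1, R 3.3.1 and DESeq2 1.12.4, and GRCh38. The counting tool and its use of strand are not given in the sources used here. Columns were matched to samples by the labels. Whole reads and library totals were recovered from the steps of the RPKM values, and 100.0% of values were whole within 0.01 reads. With totals 1% off, 0 of 500 control genes were whole. No 2 libraries were identical, and replicates differed beyond counting noise (chi-square over its degrees of freedom 2.82 to 42.2).

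Of 17665 protein-coding genes, the 13737 that reached 0.5 RPKM in 2 libraries or more were tested. The model (limma 3.58.1, R 4.3.3, variance trend) took log2(RPKM + 0.5) as 6 group means, which leaves 6 residual degrees of freedom, and each comparison had its own Benjamini-Hochberg adjustment. A gene passed at an adjusted p under 0.05. The study's thresholds of a fold above 1.5 or below 0.5 were read as well. The effect of 1 label in MDA-MB-231 minus that in Hs-578T was tested as a contrast of contrasts. The RPKM of the 7 members were summed to give shares. Groups with 3 reads or fewer in every library were treated as at a floor, which covers counting error only, as do exact intervals of read ratios. Fits and recovery were also run on simulated reads. The simulated libraries for the fits were drawn independently with 1 fixed spread, unlike the libraries here, so error rates of these data were not tested.

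The members and lists were chosen with earlier results of these data known. Genes named are the members, the other SOX genes, MAPK7, MAP2K5, overlapping genes, up to 4 of each other list by size of change among those that passed, markers, and the 3 genes most like SOX4 and SOX9. COL2A1, ACAN and COMP were named after their values were seen, as were CD44, VIM and the remaining genes of a list given with their counts. Alternatives were pseudocounts of 0.1 and 1, no filter, a filter at 1 RPKM, median-ratio scaling, quantile normalization, leaving out each library, fitting only the line compared, all gene types, voom on the recovered reads and the replicate number within a line as a block. Libraries of the same number in a line deviated together, with correlations between 0.107 and 0.541 over 6 pairs of groups. The highest was that of Hs-578T parental and MEK5DD libraries, and each of the others was at most 0.187. The main model took no pairing into account, and the replicate number entered only as the block alternative. The labels state no pairing. Tables and plots were made in Python 3.11.15 (pandas 2.3.3, numpy 2.4.6, matplotlib 3.10.9, scipy 1.17.1).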

Additional observations from a re-analysis of the deposited data

Results flagged for a closer look

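The effect of a label differed between the lines by its own test for 6 values. For libraries labelled ERK5-ko, the effect in MDA-MB-231 minus that in Hs-578T was 0.68 for SOX12, -2.96 for SOX6 and -0.87 for SOX9 on the log2 scale. For libraries labelled MEK5DD it was 1.13 for SOX4, 1.52 for SOX6 and -0.62 for SOX13. MAP2K5 RNA rose 14.1-fold with this label in MDA-MB-231 and 1.43-fold in Hs-578T, and its part in these differences was not tested. Over all tested genes 39.8% passed this test for ERK5-ko and 39.6% for MEK5DD, and 3 of 7 members passed in each. SOX6 is the only member on both lists, and its difference for ERK5-ko was the 28th lowest of 13737 genes. Groups of 2 libraries were too small to look for a library far from the others.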

How the results depend on the processing

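SOX4, SOX5, SOX6 and SOX13 with MEK5DD in MDA-MB-231, SOX4, SOX6 and SOX9 with ERK5-ko in Hs-578T, SOX4 with ERK5-ko in MDA-MB-231 and the 6 parental differences kept their direction and passed under all alternatives run on them, with the filter at 1 RPKM leaving SOX5 untested. The count of members past the threshold was 2 in place of 1 for MDA-MB-231 ERK5-ko with only the line compared and 0 with the fold thresholds as well, 2 in place of 5 for Hs-578T ERK5-ko with the fold thresholds, and 1 in place of 0 for Hs-578T MEK5DD with quantile normalization. Leaving out 1 library gave counts of 1 to 2, 3 to 6 and 0 to 1 in these comparisons, and of 2 to 4 in place of 3 for the difference in ERK5-ko effect.

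Reversed directions were all of values that did not pass. Hs-578T MEK5DD gave 0.0091 for SOX6 and 0.0361 for SOX9 after median-ratio scaling, and 0.0741 and 0.0372 after quantile normalization. The difference in ERK5-ko effect was 0.16 at a pseudocount of 1 and 0.0187 after quantile normalization for SOX4, and -0.18 with voom for SOX5, and the difference in MEK5DD effect of SOX12 was 0.0256 after quantile normalization. Leaving out 1 library gave -0.10 to 0.00 for SOX5 with ERK5-ko and -0.0767 to 0.16 for SOX15 with MEK5DD in MDA-MB-231, -0.31 to 0.0235 for SOX13 with ERK5-ko in Hs-578T, and -0.18 to 0.29, -0.16 to 0.12 and -0.14 to 0.0418 for SOX4, SOX6 and SOX9 with MEK5DD in Hs-578T. It gave -0.32 to 0.0138 for SOX13 in the difference in ERK5-ko effect and -0.22 to 0.19 for SOX12 in that of MEK5DD. The cause was not tested.

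Under the replicate block, SOX12 with MEK5DD in MDA-MB-231 passed at the same -0.33 (adjusted p = 0.0280), and no other call of a member changed. SOX15 differed in its ERK5-ko effect between the lines without MDA-MB-231 ERK5-ko replicate 1 (-0.57, adjusted p = 0.0400). With 2 libraries a group, an exact permutation test cannot go below p = 0.333, so the p-values rest on the spread shared over all groups and genes. SOX5 and SOX15 rest on few reads, and differences in Hs-578T SOX15 were not detectable at this depth.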
